A study of Mus musculus with 2 samples.

Results

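Chemokines and interleukins are the secreted signals by which immune and tissue cells call and instruct each other. Their genes were followed here in mouse pituitary with and without a working Brdt gene, which encodes a bromodomain protein best known from male germ cells. The genes were chosen by name alone: the deposited rows named Ccl or Cxcl with a number, and those named Il with a number and at most 1 letter from a to f. That rule took 66 of 31784 gene rows, 32 chemokine ligand genes (19 of the CC class and 13 of the CXC class) and 34 interleukin genes. Of these names 65 are current RefSeq symbols, and Il28b is an older symbol of Ifnl3, an interferon lambda gene. Receptors, binding proteins and ligands under other names fall outside the rule.

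The study set Brdt-/- pituitary RNA against wild-type RNA on 2 two-colour arrays, each pairing 1 pool of either genotype, with 3 mice in a pool by the design text. All mice were 8 weeks old on a C57BL/6 background, labelled male for the wild-type pools and without a stated sex for the knockout pools. The knockout carries the Brdt tm1a allele, in which a lacZ trapping cassette and a neo cassette driven by its own promoter sit in the fourth intron, and every cell of the animal carries it. On array 1 the knockout pool was labelled with Cy5 and on array 2 with Cy3. The values hold ratios and no levels, so whether a gene was detected in the pituitary, or whether the tissue's own markers were abundant, could not be checked.

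Values are log2 ratios with the knockout pool on top, the first for array 1 and the next for array 2, and ± gives the SD over the 2 arrays. That direction was taken from the dye labels and the spike-in rows and is not settled. No label states which channel stands over which, and array 2 was turned because each of the 10 spike-in RNA rows kept its sign from one deposited column to the other, which fits columns that share a dye order if the spike mixtures went with the dyes, a point the sources used here do not state. If array 2 were left as deposited, each of its signs below would be the opposite, and the main counts are given in that reading too. If both columns instead ran Cy3 over Cy5, every direction below would be inverted. Array medians over all gene rows were -0.03 and 0.03, and Pearson's r between the arrays was -0.26, a value across genes of the same pools and dyes. As turned the arrays thus tended to disagree, and as deposited r has the opposite sign. Past 1.5-fold with 1 sign on both arrays were 0.812% of all genes as turned and 3.17% as deposited. The cause of this difference was not tested.

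Chemokines bind receptors on leukocytes and guide them into tissue. The CC and CXC classes are named after the spacing of the first conserved cysteines of the protein, and many of the genes lie side by side in clusters. Interleukins bind cytokine receptors, most of which signal through STAT factors or, for the IL-1 and IL-17 families, through NF-kB. In the pituitary, the folliculostellate cells between the hormone cells are a known source of IL-6, and interleukins act on the release of corticotrophin.

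The promoters of 5 chemokine genes are given first, from RefSeq on GRCm38.p6, running from 250 bases before the annotated start of the gene to 50 bases after it. Capitals mark matches, on either strand, to 5 short motifs: the TATA box (TATAAA), a kappa-B motif bound by NF-kB (GGGANTTTC), an AP-1 motif (TGANTCA), a STAT motif (TTCNNNGAA) and an interferon response motif (GAAANNGAA). The AP-1 and STAT motifs read the same on both strands, and no match in a member's promoter overlapped a match to another motif. Cxcl13 was the only member past 1.5-fold on both arrays with 1 sign (chr5:95956689-95956988, plus strand). Ccl8 and Ccl1 are neighbours whose values lay far apart (chr11:82114935-82115234, plus strand, and chr11:82179763-82180062, minus strand). Cxcl1 and Cxcl2 are neighbours with the same kappa-B letters (chr5:90890995-90891294 and chr5:90903649-90903948, both plus strand).
Cxcl13: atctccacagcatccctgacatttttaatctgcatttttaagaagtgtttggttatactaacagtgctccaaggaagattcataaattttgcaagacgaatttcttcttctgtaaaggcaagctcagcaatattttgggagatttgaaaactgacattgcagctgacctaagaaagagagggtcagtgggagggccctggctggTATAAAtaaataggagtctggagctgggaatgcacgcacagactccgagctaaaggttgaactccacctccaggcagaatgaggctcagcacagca
Ccl8: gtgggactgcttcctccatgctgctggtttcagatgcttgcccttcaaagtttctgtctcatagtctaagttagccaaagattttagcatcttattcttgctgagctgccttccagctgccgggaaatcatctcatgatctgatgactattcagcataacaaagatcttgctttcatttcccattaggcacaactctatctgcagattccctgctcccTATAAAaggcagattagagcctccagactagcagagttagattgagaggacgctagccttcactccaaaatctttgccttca
Ccl1: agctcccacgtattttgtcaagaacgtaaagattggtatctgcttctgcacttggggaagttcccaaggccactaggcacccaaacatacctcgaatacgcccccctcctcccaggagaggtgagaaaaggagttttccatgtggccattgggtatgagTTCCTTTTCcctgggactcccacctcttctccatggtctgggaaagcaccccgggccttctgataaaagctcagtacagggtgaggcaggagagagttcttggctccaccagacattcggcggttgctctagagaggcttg
Cxcl1: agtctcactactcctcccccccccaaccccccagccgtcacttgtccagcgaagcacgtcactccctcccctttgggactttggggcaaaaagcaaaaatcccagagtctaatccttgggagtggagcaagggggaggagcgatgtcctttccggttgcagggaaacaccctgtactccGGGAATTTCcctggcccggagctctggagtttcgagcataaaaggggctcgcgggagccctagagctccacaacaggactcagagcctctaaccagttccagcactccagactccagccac
Cxcl2: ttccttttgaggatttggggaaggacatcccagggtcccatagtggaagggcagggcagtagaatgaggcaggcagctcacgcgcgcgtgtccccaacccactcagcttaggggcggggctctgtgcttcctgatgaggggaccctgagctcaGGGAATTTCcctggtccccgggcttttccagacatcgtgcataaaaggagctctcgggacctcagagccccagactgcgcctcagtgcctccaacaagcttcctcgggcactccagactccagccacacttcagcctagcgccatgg

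The TATA letters of Ccl8 begin 32 bases before the start and those of Cxcl13 46 bases before it, and the kappa-B match begins 71 bases before the start in Cxcl1 and 97 in Cxcl2. The Ccl1 window holds interferon response letters 91 bases before the start and no TATA letters. The windows of Il5 and Ccl6, named below for their unadjusted limma p and not printed, held no match to any of the 5 motifs. Promoters were at hand for 45 of the 66 members. The kappa-B letters were found in 6 of them (Cxcl1, Cxcl2, Cxcl3, Cxcl9, Il6 and Il16), and in 1.29% of 27025 genes. TATA letters were found in 18 of the 45 members and in 15.7% of all genes. They were counted on either strand and anywhere in the window, as far as 248 bases before the start in Il17c, so not each is a TATA box. AP-1 letters stood in 10 members (8.97% of all genes), STAT letters in 5 (9.55%) and interferon response letters in 8 (9.76%). These are matches of letters, not bound sites.

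No member passed limma's test across all gene rows. Adjusted over 31784 genes, 0 of 66 members were called, against 0% of all genes, and the adjusted p was 0.999995 for each of the 66. At an unadjusted p under 0.05 limma passed 3 members, Cxcl13, Il5 and Ccl6, all of them higher, which is 4.55% of the members beside 2.21% of all genes. The ordinary one-sample statistic called 0 after adjustment. With 2 arrays a permutation test by sign flips cannot give a two-sided p below 0.5, so none is given.

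On array 1, and after turning not on array 2, many chemokine genes were higher in the knockout pool. Of the 32, 13 were past 1.5-fold higher on array 1 (40.6%), where 7.19% of all genes were, and 1 was past 1.5-fold lower (3.12%, beside 6.63% of all genes). On array 2 only 2 were past 1.5-fold higher (6.25%, beside 3.52%) and 5 were lower (15.6%, beside 5.67%). Left as deposited, array 2 has those 5 as positive and the 2 as negative, a lean to the side of array 1, so the contrast between the arrays rests on the turning. The median chemokine ratio was 0.32 on array 1 and -0.07 on array 2. Of the interleukin genes, 5 of 34 were past 1.5-fold higher on array 1 (14.7%) and 2 lower. On array 2, 1 interleukin gene was past 1.5-fold higher and 0 were lower, with the signs exchanged as deposited. The interleukin medians, -0.03 and 0.06, lay near 0 and did not follow those of the chemokine genes.

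**Figure D1:**
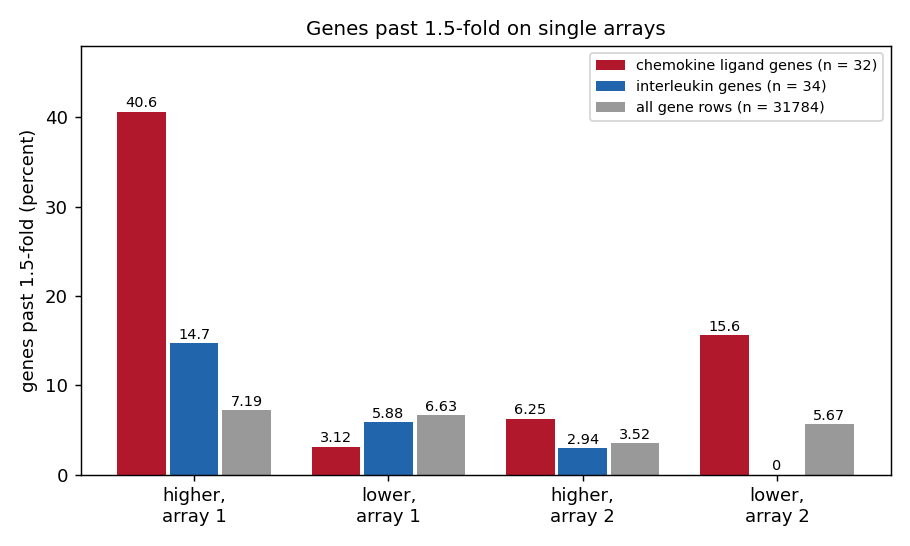
Share of genes past 1.5-fold (vertical axis, percent) on each array and in each direction, knockout over wild type, for the chemokine ligand genes, the interleukin genes and all gene rows. The bar for chemokine genes higher on array 1 stands at 40.6% beside 7.19% of all genes, while on array 2 the chemokine bar is taller for lower genes (15.6%) than for higher ones (6.25%).

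After turning, the arrays gave opposite signs for most of these genes, as they did for most genes. Of the chemokine genes, 9 were higher on both arrays, 5 lower on both and 18 of opposite sign, that is 28.1%, 15.6% and 56.2%, beside 21.6%, 19.5% and 58.9% of all genes. Of the interleukin genes 8 were higher, 7 lower and 19 opposite. As deposited, 13 chemokine genes were positive and 5 negative on both arrays and 14 opposite, and 7 interleukin genes were positive, 12 negative and 15 opposite. Of all genes 23.3% were then positive and 35.4% negative on both. Both arrays put 1 chemokine gene (3.12%) and 0 interleukin genes past 1.5-fold with 1 sign, beside 0.812% of all genes. With array 2 as deposited, 5 members did so, Ccl28, Cxcl1, Cxcl9 and Cxcl10 positive and Il4 negative, beside 3.17% of all genes, and 8 members had an unadjusted limma p under 0.05, beside 10.2% of all genes. Across members, which share the pools and dyes, r between the arrays was -0.09 for the 32 chemokine genes and -0.09 for the 34 interleukin genes.

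**Figure D2:**
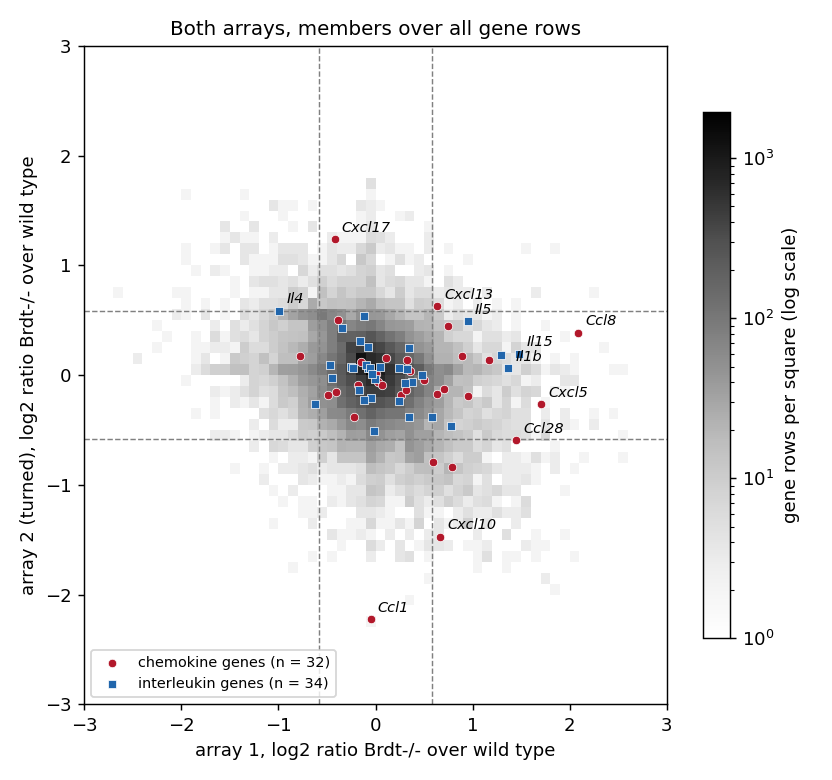
Log2 ratio of Brdt-/- over wild type on array 1 (horizontal axis) against array 2 after turning (vertical axis), with chemokine genes as circles, interleukin genes as squares, and all gene rows as a grey map on a log scale, 40 rows outside the axes not being drawn. Dashed lines mark 1.5-fold. Cxcl13 alone lies past them in the upper right, and most members with large ratios on 1 array lie near 0 or on the other side on array 2.

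In the list of CC chemokines of monocytes and macrophages, 8 of 9 genes were higher on array 1 and 4 on array 2, with list medians of 0.75 and -0.04. Over all genes 44.9% were higher on array 1 and 57.1% on array 2, and as deposited 5 of the 9 are positive on array 2. Ccl8, listed here by its name of monocyte chemoattractant protein 2 though its mouse receptor is Ccr8, had the largest mean of all members. On array 1 it was 4.24-fold higher in the knockout pool (2.09), and on array 2 it was 1.31-fold higher (0.39), with a mean of 1.24 and an SD of 1.2 (n = 2). Its limma interval ran from -0.24 to 2.71 (95%) and the adjusted p was 0.999995. Both ratios of Ccl8 were above 0, but the spread between the arrays was nearly as large as the mean. Ccl9 followed the same order, at 1.17 and 0.14, a mean of 0.65 ± 0.73. Ccl6 was nearer to equal on the arrays, at 0.75 and 0.45, and its mean of 0.60 ± 0.21 had an unadjusted limma p of 0.0344. Ccl6 and Ccl9 are rodent chemokines of myeloid cells and are neighbours in the annotation. Ccl12, a mouse ligand of the monocyte receptor Ccr2, was at 0.89 and 0.17.

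The remaining 5 were negative on array 2. Ccl2, the main monocyte attractant, was at 0.63 and -0.18. The macrophage inflammatory protein genes Ccl3 and Ccl4 were at 0.50 and -0.04 and at 0.95 and -0.19. Ccl5, a T cell and monocyte attractant, was at 0.26 and -0.18, so that these 4 were positive on array 1 and slightly negative on array 2. Within the list Ccl7 alone was lower on both arrays, at -0.40 and -0.15. Every one of the 9 genes had its larger ratio, in size, on array 1, as did 17242 of all 31784 gene rows.

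**Figure D3:**
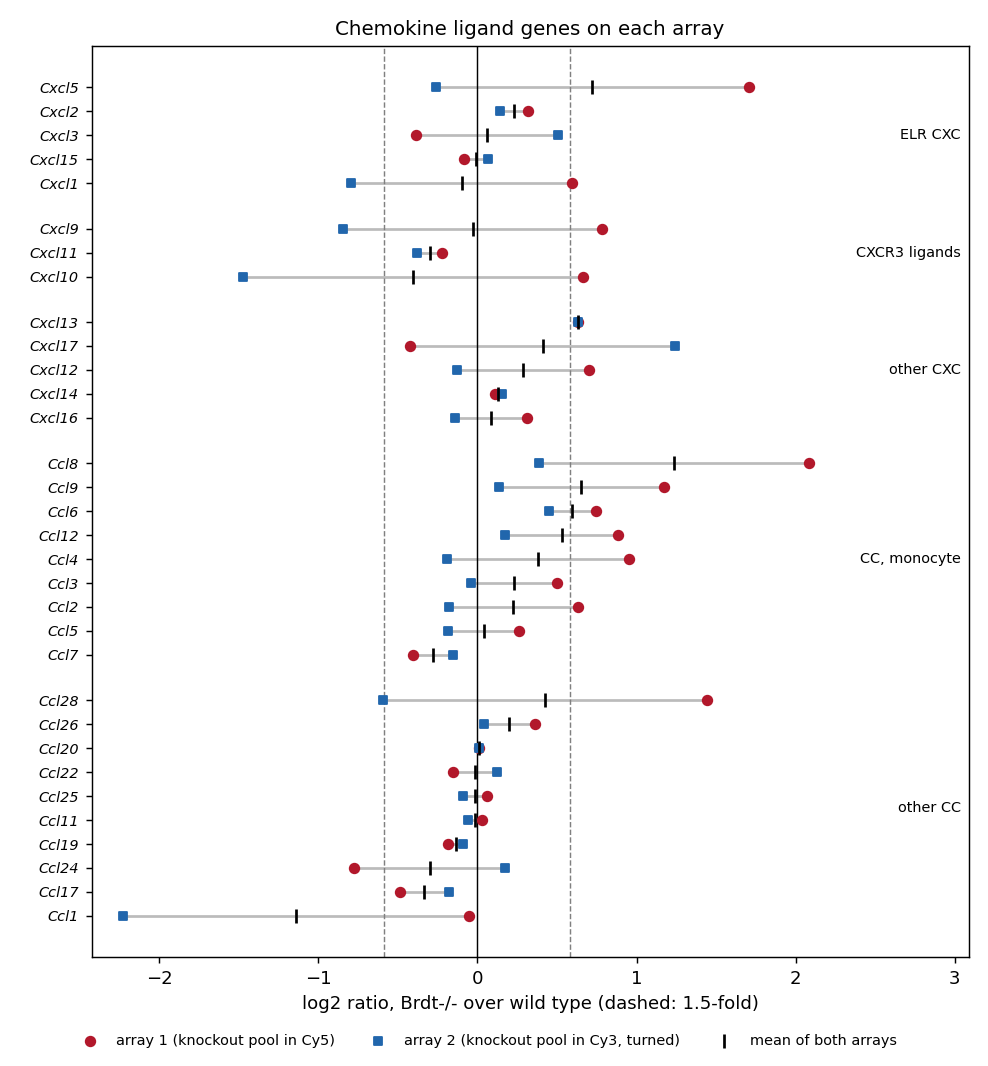
Log2 ratio of Brdt-/- over wild type (horizontal axis) for each of the 32 chemokine ligand genes, grouped by role. Circles give array 1, squares array 2 after turning, ticks their mean, and dashed lines mark 1.5-fold. The circles of the monocyte CC genes lie mostly to the right of the squares, with Ccl8 at 2.09 and 0.39, whereas Ccl1 lies at -0.05 and -2.22.

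The remaining 10 CC genes, which attract lymphocytes, eosinophils and dendritic cells or act at barrier surfaces, had medians of -0.02 and -0.07. Ccl1, made by activated T cells, was at -0.05 and -2.22. Its fold on array 2, 4.67-fold lower in the knockout pool, was the largest of any member on that array, and its mean was -1.14 ± 1.54. Ccl1 thus stood near 0 on array 1 and its value rests on array 2 alone. Ccl28, a chemokine of mucosal epithelium, was at 1.44 and -0.59, past 1.5-fold in opposite directions. Ccl17, a ligand of Ccr4, was lower on both arrays at -0.49 and -0.18. The eosinophil attractant Ccl24 was at -0.77 and 0.18, and its neighbour Ccl26 at 0.36 and 0.04. The rest (Ccl11, Ccl19, Ccl20, Ccl22 and Ccl25) lay between -0.18 and 0.12 on either array. Ccl22, another ligand of Ccr4, was at -0.15 and 0.12, and did not share the sign of Ccl17 on array 2.

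Cxcl13, which guides B cells through the receptor Cxcr5, was the most even of the larger ratios. Its ratios were 0.64 and 0.63, with a mean of 0.63 ± 0.002 (n = 2) or 1.55-fold higher in the knockout pools. Its unadjusted limma p was 0.0203 and its 95% limma interval 0.18 to 1.09. An SD this small from 2 arrays is a poor estimate of the true spread. Both ratios lay just past the 1.5-fold threshold of 0.585, and with the arrays scaled to a common SD the count of chemokine genes past it on both arrays was 0. With array 2 as deposited the mean of Cxcl13 was 0.002. Its receptor gene Cxcr5 was at -0.33 and 0.02.

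The CXC chemokines with the ELR motif, which draw neutrophils through Cxcr2, did not share a direction. Cxcl5 was at 1.71 and -0.26 and was thus 3.27-fold higher on array 1 only. Cxcl1 was at 0.59 and -0.79, and Cxcl2 next to it at 0.32 and 0.14. Cxcl1 and Cxcl2, with the same kappa-B letters in the promoters printed above, had opposite signs on array 2. Cxcl3 was at -0.39 and 0.51, and Cxcl15, a chemokine of lung epithelium, stayed within 0.1 of 0 on both arrays. The genes of this class are close paralogues, and how the array's probes tell them apart was not examined here. Cxcr2, their receptor, was at 0.05 and 1.24.

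The interferon-induced ligands of Cxcr3 split by array. Cxcl9 was at 0.78 and -0.84 and Cxcl10 at 0.66 and -1.47, both higher on array 1 and lower on array 2. In the deposited columns, where array 2 is not turned, these are ratios of the same sign, with means of 0.81 for Cxcl9 and 1.07 for Cxcl10 and limma's adjusted p at 0.465 and 0.494. Cxcl11, the third ligand, was at -0.22 and -0.38, lower on both arrays after turning. The receptor gene Cxcr3 was at 0.46 and -0.18. Whichever way array 2 is read, the 3 ligands did not all share a sign on both arrays.

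Among the remaining CXC genes, Cxcl12, the stromal ligand of Cxcr4, was at 0.70 and -0.13. Cxcl17, a mucosal chemokine, was at -0.42 and 1.24, the highest chemokine ratio on array 2. Cxcl14, a chemokine of epithelia, was at 0.11 and 0.15, and its mean of 0.13 ± 0.03 was small but even. Cxcl16, a membrane-bound ligand of Cxcr6, was at 0.31 and -0.14.

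Within the interleukins, the IL-1 family leaned higher on array 1. Il1b, the main secreted IL-1 of myeloid cells, was 2.58-fold higher on array 1 (1.37) and near 0 on array 2 (0.06), with a mean of 0.71 ± 0.92. Il1a was at 0.48 on array 1 and at -7.21e-05 on array 2. Both IL-1 genes were thus positive on array 1 and at about 0 on array 2. Il18, known from the adrenal gland and from macrophages, was at 0.34 and 0.25, with an unadjusted limma p of 0.142. Il33, an alarmin stored in the nucleus, was at 0.24 and -0.23.

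**Figure D4:**
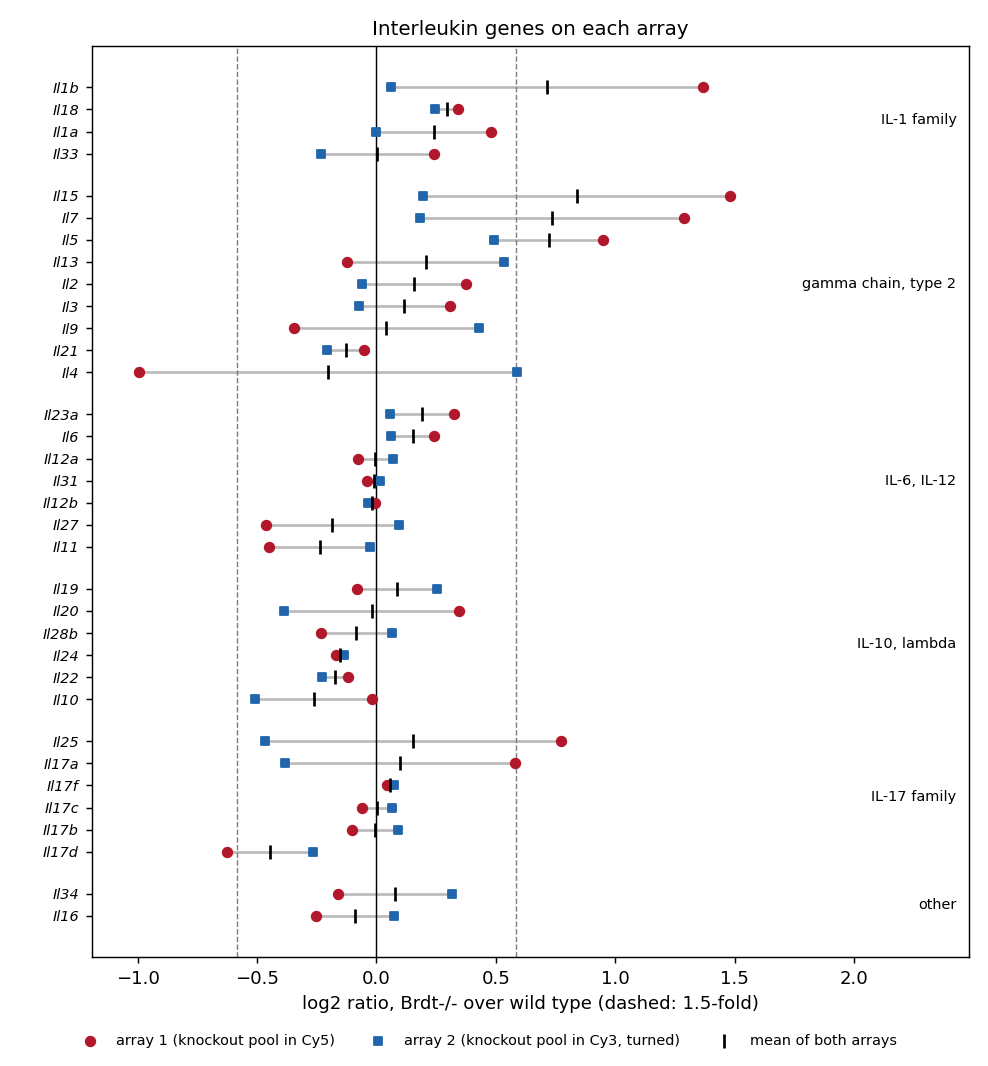
Log2 ratio of Brdt-/- over wild type (horizontal axis) for each of the 34 interleukin genes, grouped by family, with circles for array 1, squares for array 2 after turning, ticks for the mean and dashed lines at 1.5-fold. Il15, Il1b and Il7 lie far to the right on array 1 (1.48, 1.37 and 1.29) and at 0.20, 0.06 and 0.18 on array 2, while Il4 lies at -0.99 and 0.59.

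The cytokines of the common gamma chain receptor and of type 2 immunity held the highest interleukin means. Il15, which sustains natural killer and memory T cells, was at 1.48 (2.79-fold higher) and 0.20, a mean of 0.84 ± 0.91. Il7, the survival factor of lymphocytes, was at 1.29 and 0.18, a mean of 0.74 ± 0.78. Both genes were thus high on array 1 and within 0.20 of 0 on array 2. Il5, the growth factor of eosinophils, was at 0.95 and 0.49, a mean of 0.72 ± 0.32 with an unadjusted limma p of 0.0293 and a 95% limma interval of 0.13 to 1.31. Among the 8 interleukin genes higher on both arrays it had the highest ratio on array 2, although its array 2 ratio fell short of 1.5-fold.

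The type 2 cytokine genes Il4 and Il13 are neighbours, and Il5 lies near them. Il4 was at -0.99 and 0.59, and Il13 at -0.12 and 0.53. Il4 and Il13 therefore shared a direction with each other on both arrays, and it was the opposite of that of Il5 on array 1. Il9 was at -0.35 and 0.43. Il2 and Il3 were at 0.38 and -0.06 and at 0.31 and -0.07, and Il21 was at -0.05 and -0.21. Il4, Il5, Il9 and Il13 were thus all positive on array 2, and on array 1 only Il5 of these was.

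In the IL-6 and IL-12 families the ratios were small. Il6, the folliculostellate cytokine, was at 0.24 and 0.06, a mean of 0.15 ± 0.13. Il11, which shares the receptor chain gp130 with IL-6, was at -0.45 and -0.03. Il23a was at 0.33 and 0.06 and Il27 at -0.46 and 0.10, while Il12a, Il12b and Il31 stayed within 0.1 of 0 on both arrays. No gene of these families was past 1.5-fold on either array, and the medians were -0.04 and 0.06.

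In the IL-10 and lambda family the ratios were small. Il10, an anti-inflammatory cytokine, was at -0.02 and -0.51, and Il22 and Il24 were at -0.12 and -0.23 and at -0.17 and -0.14. Of the 6 genes measured, these 3 were lower on both arrays and 0 were higher on both, beside 19.5% and 21.6% of all genes. As deposited, the median of the 6 means was 0.02 in place of -0.12, with 1 positive and 2 negative on both arrays. Il20 was at 0.34 and -0.39, Il19 at -0.08 and 0.25 and Il28b at -0.23 and 0.07. None was past 1.5-fold on either array.

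Il17d, a tissue cytokine of the IL-17 family, had the lowest mean of the interleukins. It was at -0.63 and -0.27, a mean of -0.45 ± 0.25, with an unadjusted limma p of 0.0815. Its relatives differed from it: Il25 was at 0.77 and -0.47 and Il17a at 0.58 and -0.38, both changing sign between the arrays. Il17f was at 0.04 and 0.08. The remaining interleukins, Il34 (a ligand of the receptor Csf1r) and Il16 (a ligand of CD4), were at -0.16 and 0.31 and at -0.25 and 0.07.

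Among all 66, 15 members differed by more than 1 log2 unit between the arrays, 10 chemokine and 5 interleukin genes. At the other end, 9 members (Ccl11, Ccl20, Ccl25, Cxcl15, Il12a, Il12b, Il17c, Il17f and Il31) stayed within 0.1 of 0 on both. The same counts were not made over all gene rows, so neither can be read as particular to these members. A ratio near 0 in a file without intensities does not tell an unchanged transcript from an undetected one.

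The receptors of these ligands are given for comparison. Of 22 chemokine receptor genes 9 were higher on both arrays and 0 lower, beside 21.6% and 19.5% of all genes. Their medians were 0.45 and 0.07, and 0 passed limma's adjusted test. As deposited, 8 of the 22 were positive and 5 negative on both, beside 23.3% and 35.4% of all genes. Ccr2, the receptor of monocytes for Ccl2, Ccl7 and Ccl12, was at 0.53 and 0.61, one of the few receptor genes with near-equal ratios. Ccr8, the receptor that mouse Ccl8 shares with Ccl1, was at 0.14 and -0.27. Ackr4, a scavenging receptor listed under the older name Ccrl1, was at 0.85 and 0.22. None of the 22 passed 1.5-fold with 1 sign on both.

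Of 39 interleukin receptor chain genes, 10 were higher on both arrays (25.6%), 3 lower on both (7.69%) and 26 of opposite sign (66.7%). The shares over all genes were 21.6%, 19.5% and 58.9%, and 0 of the 39 passed limma's adjusted test. As deposited the counts were 15 positive, 11 negative and 13 opposite, where 23.3% of all genes were positive and 35.4% negative. Il1r2, the decoy receptor for IL-1, was at 1.29 and 0.32. Il2rg, the common gamma chain, was at 0.29 and 0.71, and Il2ra at 1.39 and -0.27. Il27ra was at 0.06 and -0.98. Il22ra2, a soluble decoy receptor for IL-22, held the largest ratio of the list on either array, at 1.57 and -1.52, and Il2rb was at 1.03 and -0.72, so both were past 1.5-fold on each array with opposite signs after turning.

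Ligands and antagonists under other names had medians of 0.11 and 0.07 over 19 genes. The platelet chemokine Ppbp was at 2.86 and 1.51, and the 1 gene of this list past 1.5-fold on both arrays. Pf4, also a platelet chemokine, was at 0.89 and 0.35. Xcl1, made by natural killer and T cells, was at -0.19 and -1.27, so that it was low mainly on array 2. The cytokine Tnf was at 1.06 and -0.40. Genes of the NF-kB and STAT3 feedback that cytokines induce had medians of 0.03 and -0.13, with 0 passing limma's adjusted test. Of these 15 genes 3 were higher and 3 lower on both arrays, beside 21.6% and 19.5% of all genes. As deposited 6 were positive and 3 negative, beside 23.3% and 35.4% of all genes. Icam1 was at -0.39 and 1.77 and Tnfaip3 at 0.50 and -0.80. Cish was lower on both arrays, at -0.24 and -0.24, and so was Nfkbia, at -0.03 and -0.25. Socs3, a STAT3 target, was at 0.08 and 0.03.

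Marker lists of neutrophils, macrophages, folliculostellate cells, lymphocytes and endocrine cells all had their higher medians on array 1 after turning. In bulk RNA, more cells of a type and more RNA per cell cannot be told apart. Over all genes, 21.6% were higher and 19.5% lower on both arrays, and 23.3% positive and 35.4% negative as deposited. Of 16 neutrophil markers 12 were higher on both arrays and 2 lower, and as deposited 2 were positive and 0 negative on both. Their median was 2.61 on array 1 against 0.27 on array 2, within ranges of -0.27 to 5.54 on array 1 and -0.45 to 1.32 on array 2. Of 10 macrophage markers 5 agreed in being higher and 1 in being lower, and the medians were 0.44 and 0.15. Folliculostellate and stem cell markers, 9 in all, had medians of 0.45 and 0.04, with 3 higher and 0 lower on both. The 10 lymphocyte markers had medians of -0.08 and -0.16, with 1 higher and 5 lower on both. The 10 endocrine markers had medians of 0.23 and -0.17, with 2 higher and 1 lower on both. As deposited, 2 macrophage markers were positive and 2 negative on both arrays, and 4 and 2 of the folliculostellate markers. In that reading 1 lymphocyte marker was positive and 3 negative on both, and 6 endocrine markers were positive and 1 negative. The part of these cells in the chemokine and interleukin ratios was not tested.

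**Figure D5:**
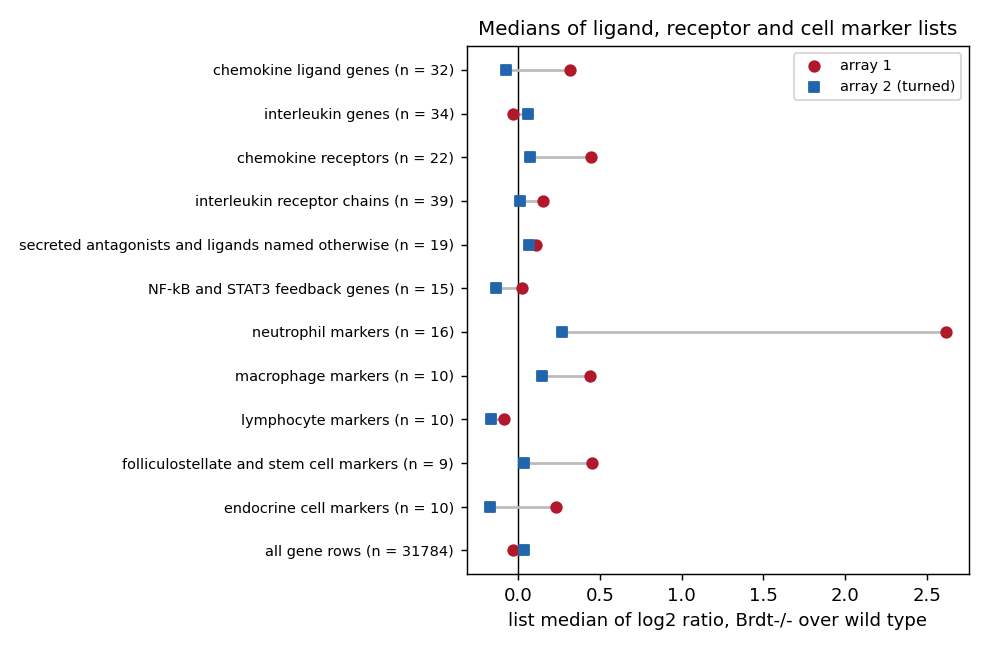
Median log2 ratio of Brdt-/- over wild type (horizontal axis) of each gene list on array 1 (circles) and array 2 after turning (squares), with the number of genes measured. Neutrophil markers lie at 2.61 and 0.27, and the chemokine ligand genes at 0.32 and -0.07, next to -0.03 and 0.03 for all gene rows.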

How the data were processed

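The data are 1 table of 31840 rows and 2 columns, 1 per two-colour Agilent array. The authors deposited signed linear fold changes between an array's channels, read as such from the values, of which 0 lay between -1 and 1. Per the labels' protocols, labelling used the Agilent two-colour low-input amplification kit. The sources used here do not give the background correction, the normalization, how probes were combined or a genome build. After 56 control rows were left out, 31784 gene rows remained. Each fold was converted to its log2 with the sign kept, and array 2, with the knockout pool in Cy3, was turned.

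The mean of both arrays was tested against 0 for every gene row by an intercept-only fit (limma version 3.58.1 under R version 4.3.3, moderated by eBayes). P-values were adjusted after Benjamini-Hochberg, at 0.05. The procedure was tested on simulated data, where the check was only that known changes came back in the mean. The rate of false calls was not checked. Since the labels name pools as replicates, p-values measure the spread between pools and arrays together. With the dyes exchanged, a dye effect on a gene enters that spread, and so the SD, the interval and p. A dye term was not fitted, since it would leave no residual degrees of freedom. The number of arrays limits the precision.

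The members, gene lists and tests were chosen with earlier results of these data known. Named members are up to 4 per role list by size of mean, those past 1.5-fold on both arrays, the 6 with the largest difference between arrays, and up to 4 genes of each other list. Genes named beyond this were chosen after their values were seen. Alternatives were array 2 as deposited, centring, scaling, other thresholds and single arrays. Promoters came from the RefSeq table of GRCm38.p6, 300 bases each, and 6 members had more than 1. Of the chemokine receptors, 1 gene that the naming rule takes is not reported here.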

Additional observations from a re-analysis of the deposited data

How the results depend on the processing

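Calls by limma stayed at 0 with array 2 as deposited, with each array centred on its median, with both arrays scaled to a common SD and with the ordinary statistic, and became 3 at an unadjusted p under 0.05. The count of chemokine genes past the fold threshold on both arrays, 1 at 1.5-fold, was 4 with array 2 as deposited, 0 after scaling, 3 at 1.2-fold (Ccl6, Ccl8 and Cxcl13) and 0 at 2-fold. That of interleukin genes, 0 at 1.5-fold, was 1 with array 2 as deposited and 2 at 1.2-fold (Il5 and Il17d). The shares of all genes past 1.2-fold and 2-fold were not counted, so the counts at those thresholds have nothing to be set beside. From 1 array alone the count ran from 7 to 14 for chemokine genes and from 1 to 7 for interleukin genes. The median chemokine ratio, 0.07, became 0.15 with array 2 as deposited, and ran from -0.07 to 0.32 over single arrays, so its sign was set by which array was used. The interleukin median, 0.02, ran from -0.03 to 0.06. Of the 41 members the naming rule takes, 16 moved by more than their SD with array 2 as deposited and 1 after scaling. An SD is large where the arrays had large ratios of opposite sign, so this count misses some changes of sign. The means of Cxcl10 (-0.40 to 1.07) and Cxcl9 (-0.03 to 0.81) changed sign with array 2 as deposited and were not counted. The 1 after scaling was Cxcl13, whose mean went from 0.633 to 0.638 with an SD of 0.002. The changes with array 2 as deposited follow from the turned sign itself, and the cause of the others was not tested. Each array sets a knockout pool against the wild-type pool of the same number, so the fit on ratios is already paired and has no unpaired form to compare with. A test without 1 array was not run, since no residual degrees of freedom are left. Signal over background is not known, so no filter on low values was run.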

Other observations

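Several members lie next to each other in the RefSeq annotation of GRCm38.p6, counting protein-coding genes, and neighbours could differ widely or share a sign. Il4 and Il13 shared a sign on each array, and Il1a and Il1b were both positive on array 1 (0.48 and 1.37). The runs of at least 4 genes are described here. In the run of 6 genes Ccl2, Ccl7, Ccl11, Ccl12, Ccl8 and Ccl1, the log2 ratios on array 1 ran from -0.40 for Ccl7 to 2.09 for Ccl8. On array 2 they ran from -2.22 for Ccl1 to 0.39 for Ccl8, so both extremes came from adjacent genes. In the run of 5 genes Ccl5, Ccl9, Ccl6, Ccl3 and Ccl4, all were positive on array 1 (0.26 to 1.17), and on array 2 Ccl9 and Ccl6 were positive (0.14 and 0.45) and the other 3 negative. In the run of 4 genes Cxcl3, Cxcl15, Cxcl1 and Cxcl2, Cxcl3 and Cxcl1 had opposite signs on each array. In that of Il24, Il20, Il19 and Il10, Il20 was the 1 positive gene on array 1 (0.34) and Il19 on array 2 (0.25).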
